A study of Mus musculus with 2 samples.

Results

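Hedgehog pathway genes were examined in mouse embryonic fibroblasts (MEFs) without and with Bmi1. The members were the receptor gene Ptch1, the signal transducer Smo, the ligand-binding antagonist Hhip, the co-receptors Gas1, Cdon and Boc, the transcription factors Gli1, Gli2 and Gli3, and their inhibitor Sufu. They were chosen by name, as all probe sets of the array annotated to 1 of these 10 genes and to no other gene, which gave 27 of 45101 probe sets and 10 of 18194 genes. RNA came from 2 cultures, 1 line of Bmi1 null MEFs and 1 line of Bmi1 wild-type MEFs, each hybridised to 1 Affymetrix whole-genome mouse expression array. Both lines were grown in serum-containing medium and carry the strain label C57BL/6 and the label male. Per the methods of the study they were isolated from littermate embryos. Both overexpress TBX2, a T-box repressor used to immortalise them, so the wild-type line is also a modified line. With 1 array per group there is no replicate and no test, and each difference is between 2 arrays. Genotype, line, culture, array and the difference in Y-linked signal given below cannot be told apart.

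In Hedgehog signalling a secreted ligand (Sonic, Indian or Desert hedgehog) binds the membrane protein Ptch1 at the primary cilium, with the help of the co-receptors Gas1, Cdon and Boc. Binding releases Smo from inhibition by Ptch1, and active Smo frees the GLI zinc finger factors from Sufu, so that less of the truncated Gli3 repressor is made and activator forms enter the nucleus. Gli1 and Ptch1 are transcribed in response to the pathway in most responding tissues and are its usual readouts, whereas Gas1, Cdon and Boc are known to be repressed by it. GLI factors are also known as activators of Bmi1 in neural precursors and tumours, and Bmi1 is a subunit of Polycomb repressive complex 1, which stimulates the ubiquitylation of histone H2A.

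The signal of a probe set is the MAS5 intensity, on which each array had been scaled to the same trimmed mean of 500. A signal of 100, which is 0.2 times that mean, was taken as the floor. A ratio is null over wild-type, a probe set below the floor on 1 array gives only a lower bound ("at least N-fold"), and a probe set below it on both has no ratio and is called not measured. Signals of different probe sets cannot be ranked as transcript levels, so levels are compared between the arrays and not between genes. The SD of log2 ratios between probe sets of the same gene, which covers probe set error only, was 0.34 where the dimmer of the pair was at 100 to 500, 0.26 at 500 to 2000 and 0.21 at 2000 or more. In a bulk culture, fewer cells that express a gene and less RNA per cell cannot be told apart.

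The arrays were checked against their labels first. Bmi1 read 2146 in null cells and 9933 in wild-type cells at its brighter probe set, 4.63-fold lower, and 831 and 931 at the other, and the place of these probes in relation to the deletion is not given in the sources used here. Tbx2 read 8.03 in null cells and 23.2 in wild-type cells, below the floor, and whether its probes match the introduced TBX2 is not known here. The Y-linked genes Eif2s3y, Uty and Kdm5d read 15.3 to 26.5 in null cells, below the floor, against 712 to 1683 in wild-type cells, so that the null array goes against its label male. Of 12 fibroblast markers, 11 were above the floor in each line, 4 were higher by 2-fold or more in null cells and 2 were lower by as much. Col3a1, Col5a1 and Col1a1 were 4.38-fold, 2.73-fold and 2.16-fold higher. Thy1 was the one below it in null cells (50.7, against 375 in wild-type cells), Lum the one below it in wild-type cells (729 in null cells and 68.0 in wild-type cells), and Pdgfra was 9.31-fold lower in null cells. Among markers of other cell types, 1 of 5 epithelial markers was above the floor on each array (summed signal 1024 in null cells and 242 in wild-type cells, of which Epcam gave 834 and 149, while Cdh1 was below the floor at 19.9 and 8.10). For mesothelial markers 3 of 4 were above it in null cells and 2 in wild-type cells (summed signal 2904 in null cells and 3294 in wild-type cells, with Upk3b 9.01-fold higher and Msln 2.92-fold lower), and for cartilage and bone 3 of 4 in null cells and 1 in wild-type cells (842 and 907). The summed signals in null and wild-type cells were 2528 and 2025 for 5 neural and glial markers (4 above the floor on each array, mostly from Nes, with Tubb3 2.70-fold lower), 299 and 413 for 4 endothelial markers (1 and 2 above it, with Cdh5 at least 2.08-fold lower), 475 and 562 for 5 macrophage and blood markers (2 on each, Ptprc below the floor on both) and 298 and 238 for 3 skeletal muscle markers (1 on each). The part of these differences in the values below was not tested.

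Members of the pathway differed in both directions between the lines. Gas1 had the highest ratio, about 12-fold higher in null cells, and Cdon and Ptch1 were 2.87-fold and 2.19-fold higher. Smo and Sufu were higher by less than 2-fold, Boc was nearly level, Gli3 was lower by just under 2-fold, and Gli1 and Gli2 lay around the floor. Hhip was not measured. Of the 27 probe sets, 16 were measured, 12 of them on both arrays, 2 in null cells alone and 2 in wild-type cells alone. At least 2-fold higher signal was found for 5 of the 16 (31.2%), where 5.06% of all 20620 measured probe sets with 1 gene symbol were higher by as much, and for 0 of the 16 at least 2-fold lower signal, where the share of all was 5.1%, although both probe sets of Gli2 give only bounds on a lower signal. Because 3 of these 5 probe sets belong to Gas1, the count of genes is smaller, namely 3 of the 9 measured genes for higher signal (5.73% of all 11766 measured genes) and 0 of 9 for lower signal (5.16%). The median log2 ratio was 0.51 over the 16 probe sets, bounds included, and -0.013 over all measured probe sets. As the members were listed with earlier results of these data known, these values describe the list and do not test for an excess.

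**Figure D1:**
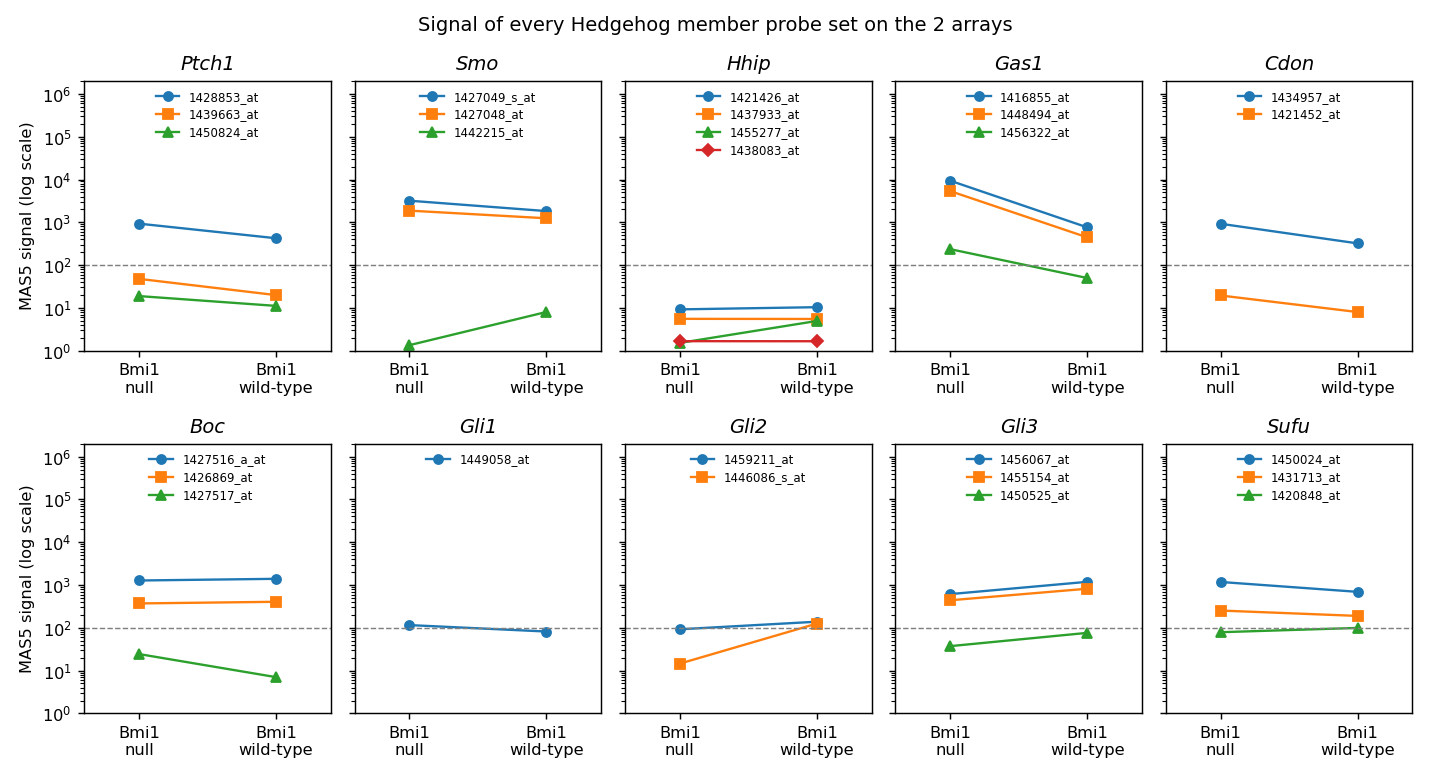
MAS5 signal (log axis) of each of the 27 probe sets on the Bmi1 null array and the Bmi1 wild-type array, 1 panel per gene, with the floor of 100 as a dashed line. The 3 Gas1 lines slope down towards wild-type, both measured Gli3 lines slope up, and all 4 Hhip lines stay near or below 10.

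The promoters of Gas1, Cdon and Ptch1, the genes past 2-fold on the higher side, and of Gli3, which had the lowest ratio among members measured on both arrays, are shown because Polycomb complexes of mammals are known to gather at CpG-rich promoters. RefSeq sequences of assembly GRCm38.p6 were matched for 8 of the 10 members (not Gli1 or Boc), each from 250 bases before to 50 bases after the annotated start. Capitals mark CG dinucleotides. Gas1 lies at chr13:60177486-60177785 (minus strand), Cdon at chr9:35451826-35452125 (plus strand), Ptch1 at chr13:63565686-63565985 (minus strand) and Gli3 at chr13:15463473-15463772 (plus strand).
Gas1: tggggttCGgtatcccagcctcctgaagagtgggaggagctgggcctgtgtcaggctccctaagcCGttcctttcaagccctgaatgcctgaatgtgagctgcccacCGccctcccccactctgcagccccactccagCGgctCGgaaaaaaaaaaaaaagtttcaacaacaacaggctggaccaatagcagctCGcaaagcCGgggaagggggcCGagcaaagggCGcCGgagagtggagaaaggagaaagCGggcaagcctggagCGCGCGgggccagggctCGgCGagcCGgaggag
Cdon: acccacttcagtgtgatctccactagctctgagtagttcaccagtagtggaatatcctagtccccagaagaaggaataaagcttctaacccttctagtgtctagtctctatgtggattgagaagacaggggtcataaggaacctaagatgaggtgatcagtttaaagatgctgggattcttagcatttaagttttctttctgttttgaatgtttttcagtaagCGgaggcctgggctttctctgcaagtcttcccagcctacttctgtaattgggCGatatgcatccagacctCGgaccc
Ptch1: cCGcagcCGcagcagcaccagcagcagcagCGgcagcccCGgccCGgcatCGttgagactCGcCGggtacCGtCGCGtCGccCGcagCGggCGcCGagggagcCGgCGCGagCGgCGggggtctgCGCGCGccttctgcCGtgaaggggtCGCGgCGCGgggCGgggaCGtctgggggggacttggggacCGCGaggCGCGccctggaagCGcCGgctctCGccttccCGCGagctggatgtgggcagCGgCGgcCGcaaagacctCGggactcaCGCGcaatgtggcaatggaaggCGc
Gli3: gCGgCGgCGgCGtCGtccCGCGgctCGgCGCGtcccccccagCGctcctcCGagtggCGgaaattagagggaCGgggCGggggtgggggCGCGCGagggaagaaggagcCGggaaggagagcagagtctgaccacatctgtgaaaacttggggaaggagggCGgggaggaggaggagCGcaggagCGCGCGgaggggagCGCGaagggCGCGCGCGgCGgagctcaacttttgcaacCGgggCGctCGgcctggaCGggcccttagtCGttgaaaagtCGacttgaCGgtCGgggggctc
The Gas1 promoter held 17 CG dinucleotides, Cdon 3, Ptch1 47 and Gli3 39, where the median of all 32851 promoters was 7 and 68.6%, 23.3%, 98.6% and 95.6% of them held fewer. In these windows the genes higher in null cells ran from CG-poor, for Cdon alone, to CG-dense, and Gli3 lay between Gas1 and Ptch1. Whether the Cdon window is at the main start of the gene was not checked. Each member had a single window, and a gene may have other starts whose CG content is not given here. Among the other members Hhip had 30, Gli2 28, Smo 17 and Sufu 12. The consensus GLI site GACCACCCA was searched on both strands and had 0 matches in these 8 promoters, as had GACCNCCCA, which includes it. In all promoters of this length the shares with a match were 0.253% and 0.977%, and none of 56 promoters of 38 other pathway genes had one. Such windows leave out sites farther from the start.

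Among the co-receptors, Gas1, a GPI-anchored protein first found as a gene of growth-arrested fibroblasts, differed most. The brighter Gas1 probe sets, which need not be independent, gave near-equal ratios. Its brightest, 1416855_at, read 9370 in null cells and 762 in wild-type cells, a 12.3-fold higher signal (log2 ratio 3.62). The next, 1448494_at, read 5354 and 445, which is 12.0-fold higher (log2 ratio 3.59). These ratios differed by less than the probe set SD of 0.21 for signals of this size. The remaining one, 1456322_at, read 236 in null cells and 50.0 in wild-type cells, below the floor, so it was at least 2.36-fold higher. Of all 11766 measured genes, 35 had a higher ratio than Gas1. It was thus well inside the upper tail of the comparison, as the plot of members among all measured genes shows, and above each of the other members by more than the probe set SD.

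Cdon and Boc, related transmembrane proteins with immunoglobulin and fibronectin repeats that bind Hedgehog ligands, did not move alike. Cdon read 924 in null cells and 322 in wild-type cells at 1434957_at, 2.87-fold higher (log2 ratio 1.52). Its other probe set, 1421452_at, read 19.5 and 8.0, under the floor in each line, so the Cdon value rests on 1 probe set. In the comparison of all genes, 352 had a higher ratio. Boc read 1275 in null cells and 1396 in wild-type cells at 1427516_a_at (log2 ratio -0.13). At 1426869_at it read 371 and 406 (log2 ratio -0.13), and 1427517_at read 24.4 and 7.04, which gives no ratio. The Boc ratios were closer to 0 than the probe set SD of 0.26 and 0.34 for these signals, whereas the Cdon ratio exceeded it several times over. That SD does not cover the spread between lines, cultures or arrays.

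**Figure D2:**
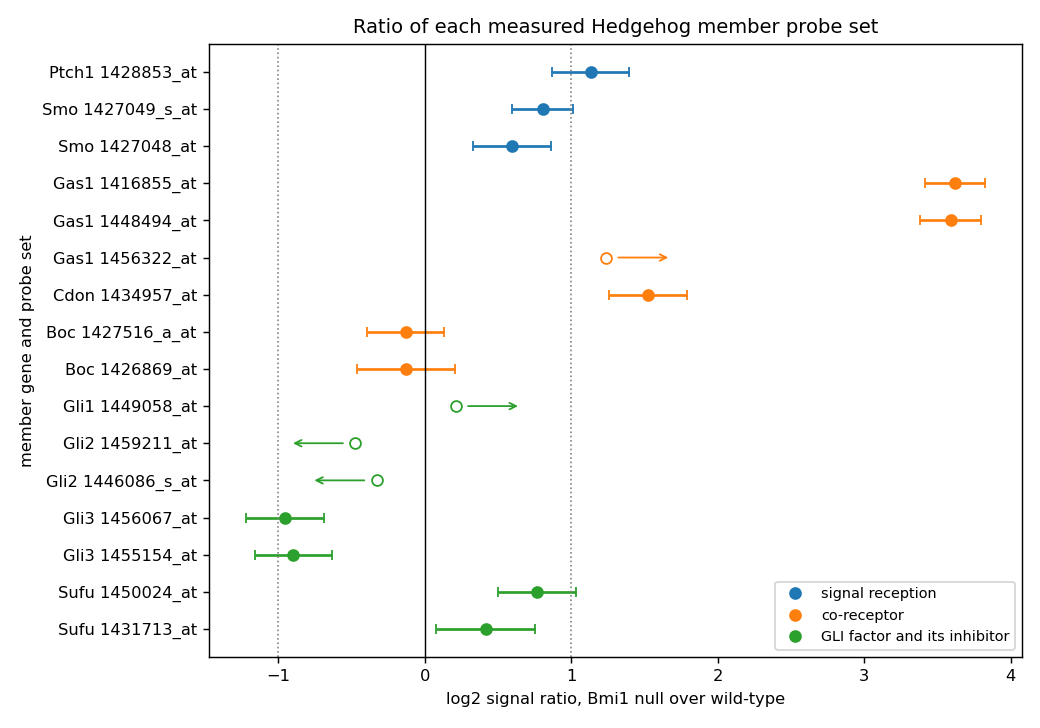
Log2 signal ratio, Bmi1 null over wild-type, of the 16 measured member probe sets, coloured by role. Filled points have error bars of 1 probe set SD for their signal class (0.21 to 0.34), open points with arrows are lower bounds, and dotted lines mark 2-fold. Gas1 lies near 3.6 at its brighter probe sets, Boc near 0 and Gli3 just inside the 2-fold line on the lower side.

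Of the genes for reception of the signal, Ptch1, the receptor and itself a target of the pathway, read 931 in null cells and 425 in wild-type cells at 1428853_at. This was 2.19-fold higher (log2 ratio 1.13), and 559 of the measured genes had a higher ratio. The other probe sets, 1439663_at (47.7 in null cells and 19.9 in wild-type cells) and 1450824_at (18.9 and 11.2), were below the floor, so Ptch1 too rests on 1 probe set. Smo, the seven-pass protein that carries the signal onward, read 3199 in null cells and 1830 in wild-type cells at 1427049_s_at, 1.75-fold higher (log2 ratio 0.81). At 1427048_at it read 1876 and 1242, 1.51-fold higher (log2 ratio 0.59). Both Smo probe sets were designed from the same target sequence, so they are not independent, and another, 1442215_at, was below the floor (1.35 in null cells and 8.04 in wild-type cells). Hhip, a membrane protein that binds and sequesters the ligands and is induced by the pathway, read 1.52 to 9.25 in null cells and 1.66 to 10.4 in wild-type cells over its 4 probe sets. No Hhip signal above the floor was therefore detected in either line, and no ratio is given.

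Of the GLI factors, Gli1 and Gli2 read close to the floor. Gli1, whose transcript is the usual readout of pathway activity, read 116 in null cells and 81.9 in wild-type cells at its single probe set, 1449058_at, just above and just below the floor, so it was at least 1.16-fold higher. The unbounded log2 ratio of 0.50 exceeded the probe set SD of 0.34, but it includes a signal below the floor. Gli2, the main activator in most tissues, read 92.4 in null cells and 139 in wild-type cells at 1459211_at, which is at least 1.39-fold lower. At 1446086_s_at, designed from the same sequence, it read 14.6 and 126, at least 1.26-fold lower. These readings of the same transcript at the floor differ widely in null cells, and the size of the Gli2 difference cannot be given.

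Gli3, the main repressor of the pathway in the absence of ligand, was lower in null cells at both of its measured probe sets. It read 614 in null cells and 1187 in wild-type cells at 1456067_at, 1.94-fold lower (log2 ratio -0.95). At 1455154_at it read 440 and 820, 1.86-fold lower (log2 ratio -0.90). The ratios of these probe sets lay within the probe set SD of 0.26 of each other and more than 3 such SDs below 0. That SD covers probe set error and not the spread between lines, cultures or arrays. The remaining Gli3 probe set, 1450525_at, read 37.3 in null cells and 76.2 in wild-type cells, below the floor. By its representative probe set Gli3 had a lower ratio than all but 657 of the 11766 measured genes. It had the lowest ratio among members measured on both arrays, and Gli2, for which only bounds are known, may lie lower.

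Sufu, the cytoplasmic inhibitor that holds GLI factors, read 1178 in null cells and 692 in wild-type cells at 1450024_at, 1.70-fold higher (log2 ratio 0.77). At 1431713_at it read 253 and 190, 1.33-fold higher (log2 ratio 0.42). The remaining probe set, 1420848_at, designed from the same sequence as the brightest, lay just under the floor on both arrays at 79.0 and 99.4 and so had no ratio, although its unfloored order was the opposite. Counted at 1.5-fold, a threshold chosen after the values were seen, 8 of the 16 member probe sets were higher and 2 lower in null cells, where the shares of all measured probe sets were 11.6% and 12.8%. The 3 added on the higher side were the pair of Smo and the brightest of Sufu, and the 2 on the lower side were those of Gli3. By genes, 5 of 9 were higher and 1 lower by this measure, where the shares of all measured genes were 12.5% and 12%.

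**Figure D3:**
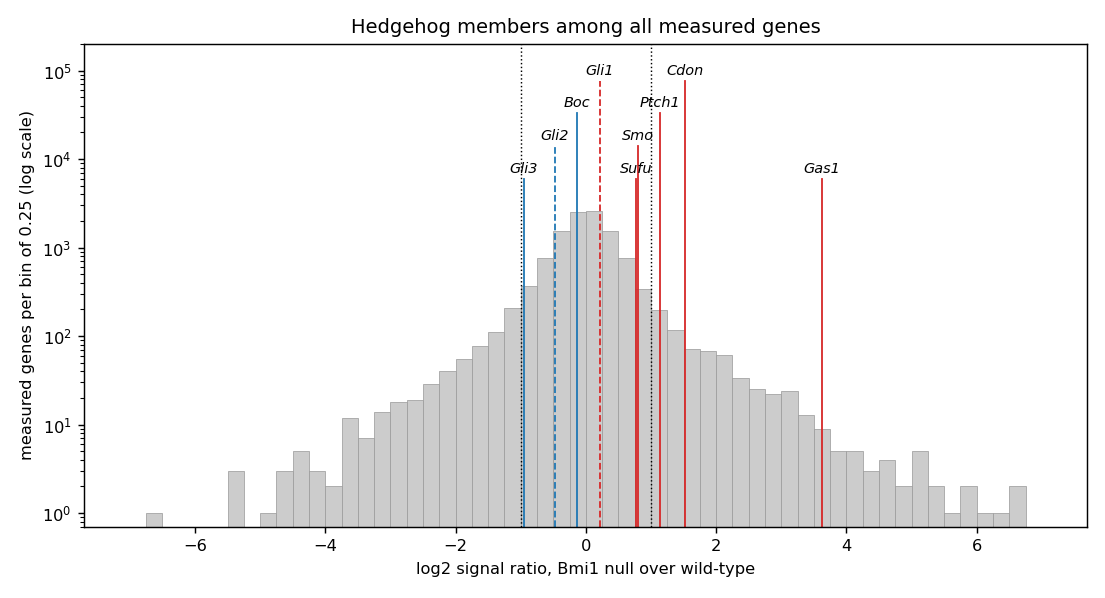
Number of measured genes (log axis) in bins of log2 signal ratio, Bmi1 null over wild-type, with a line for each of the 9 measured member genes at its representative probe set. Red lines are above 0 and blue lines below it, broken lines are lower bounds, and dotted lines mark 2-fold. Gas1 stands at 3.62 in the upper tail, Cdon and Ptch1 beyond 2-fold, and Gli3 at -0.95 just short of it.

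The rest of the pathway was read from a list of 52 further genes. Of these, 48 had a probe set of their own, 41 were measured and 7 were below the floor on both arrays. Each gene is given at its representative probe set alone unless another is named. A 2-fold or larger difference towards null cells was found for 2 of the 41 (4.88%) and towards wild-type cells for 3 (7.32%). These were close to the shares of all measured genes given above, and the median log2 ratio was 0.095. Of the 3 genes lower in null cells, 1 was Bmi1 itself, the deleted gene. The ligands themselves were at or below the floor. Shh read 68.1 in null cells and 54.1 in wild-type cells, Dhh 55.7 and 46.0, and Ihh 63.9 and 104 at their brighter or single probe sets. Of genes that process and release ligands, Disp1, which exports them from the producing cell, read 591 in null cells and 457 in wild-type cells (1.29-fold higher), and Hhat, the acyltransferase that palmitoylates them, read 261 and 239 (1.09-fold higher). Scube1, a secreted protein that helps ligand release, read 129 in null cells and 25.3 in wild-type cells, below the floor, so it was at least 1.29-fold higher. No ratio or bound of this group reached 2-fold, but for Scube1 and Ihh these are bounds and the differences may be larger.

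Components of the cilium and the kinase and degradation machinery were close to level as groups. None of 11 measured cilium genes differed 2-fold (median log2 ratio 0.12, from -0.45 for Tulp3 to 0.95 for Tctn1). Tctn1, a protein of the ciliary transition zone, was nearest to the threshold, with 281 in null cells and 146 in wild-type cells (1.93-fold higher). Evc and Evc2, which form a complex that passes the signal on from Smo, were 1.47-fold and 1.34-fold higher, whereas Tulp3 and Rab23, which restrain the pathway, were 1.37-fold and 1.31-fold lower. None of 13 measured kinase and degradation genes differed 2-fold either (median -0.031). Within this group the catalytic subunit of protein kinase A, Prkaca, was 1.44-fold higher (5255 in null cells and 3653 in wild-type cells), and Spop, an adaptor for the degradation of GLI factors, was 1.47-fold lower (3120 and 4587).

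Among other receptors and co-receptors, 1 of 2 measured genes was past 2-fold. Gpr161, a ciliary G protein-coupled receptor that restrains the pathway through protein kinase A, read 422 in null cells and 1946 in wild-type cells, 4.62-fold lower (log2 ratio -2.21). Its other probe set read 69.0 in null cells and 7.11 in wild-type cells, under the floor, so this value rests on 1 probe set. Lrp2, an endocytic receptor for Sonic hedgehog, read 179 and 149 (1.20-fold higher), and Gpc3, a glypican that competes for the ligands, was below the floor on both arrays.

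Genes described elsewhere as GLI targets went both ways. Among 11 measured targets, 2 had a signal higher by 2-fold or more in null cells and 2 a signal lower by as much (18.2% each, where 5.73% and 5.16% of all measured genes did), and 1 of the lower ones was Bmi1 itself, the deleted gene. Without Bmi1, 1 of 10 measured targets was lower by as much. Bmp4, a ligand induced in mesenchyme by Hedgehog signals, read 2044 in null cells and 490 in wild-type cells, 4.18-fold higher at its single probe set. Bcl2, an inhibitor of apoptosis, read 474 and 201 (2.36-fold higher), and it is named after its value was seen because its signal lay under the mean of 500 that the naming rule asked for. Another Bcl2 probe set read 109 in null cells and 39.6 in wild-type cells, a bound of only 1.09-fold. Foxf1, a forkhead factor of Hedgehog-responsive mesenchyme, was 2.45-fold lower (221 in null cells and 540 in wild-type cells), and at least 1.35-fold lower at another probe set. Its relative Foxf2 was nearly level at 464 and 393. The cyclins Ccnd1 and Ccnd2 were 1.29-fold and 1.41-fold higher, Mycn was 1.32-fold lower and Osr1 1.84-fold lower. Over the 11 measured targets the median log2 ratio was 0.13, with 7 ratios above 0 and 4 below.

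**Figure D4:**
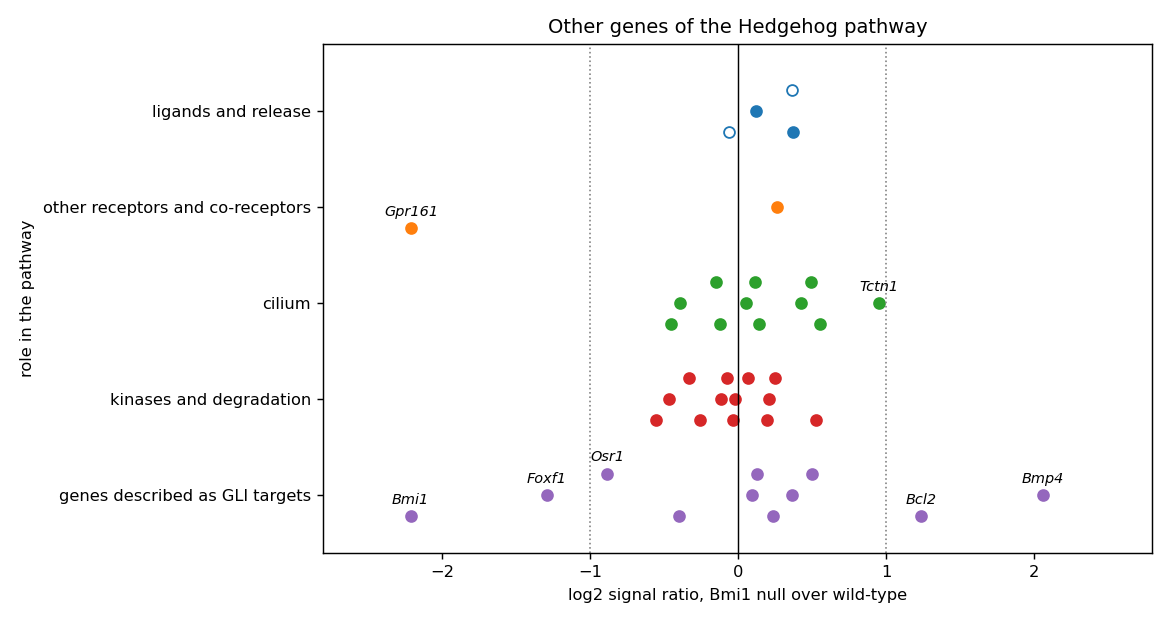
Log2 signal ratio, Bmi1 null over wild-type, of the 41 measured genes of the wider pathway list, 1 row per role, points spread vertically for legibility. Open points are lower bounds, dotted lines mark 2-fold, and the genes farthest from 0 are named. Points of cilium, kinase and ligand genes, bounds included, lie inside the 2-fold lines, Gpr161 lies beyond them at -2.21, and the targets reach from -2.21 for Bmi1 to 2.06 for Bmp4.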

How the data were processed

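Total RNA from both lines was copied into biotinylated cRNA and hybridised per the labels. The authors derived the deposited intensities, 1 linear signal per probe set, with MAS5, which sets perfectly matched against mismatched probes. The scaling settings and detection calls are not given in the sources used here. After removal of 2% of values at each end the mean was 500 on both arrays, so that a difference common to most transcripts cannot be seen. Median signal was 90.1 on the null array and 84.8 on the wild-type array, a shift of 0.087 in log2.

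The platform annotation gave 1 gene symbol to 34958 of the 45101 probe sets, several to 932 and no symbol to 9211. Of those with 1 symbol, 34754 were found by Entrez identifier in the RefSeq table of GRCm38.p6, and 0 symbols changed. The probe set whose mean log2 signal was highest stood for its gene. Signals were floored at 0.2 times the trimmed mean, and log2 ratios were taken with Python 3.11.15, numpy 2.4.6 and pandas 2.3.3, checked on simulated data. The probe set SD is the SD of differences in log2 ratio between the brightest pair of probe sets of a gene over the square root of 2 (4591 pairs). No test was possible, and the number of arrays limits precision.

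All member probe sets are named. Of the wider list, the rule named genes at least 2-fold different whose brighter signal exceeded the trimmed mean, and the 3 ligands; other names were chosen after their values were seen. Members and lists were chosen with earlier results of these data known. Alternatives covered the floor, a pseudocount, the scaling, the probe set that stands for a gene and, added after the data were seen, a 1.5-fold threshold.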

Additional observations from a re-analysis of the deposited data

How the results depend on the processing

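Each of the 16 measured member probe sets kept its direction under all 5 or 6 alternative settings that gave it a ratio. Most of this was fixed in advance. The floor and pseudocount were equal on both arrays, so changing them could not reverse a direction. Matching the medians shifted ratios by only 0.087 in log2, less than the lowest positive ratio, 0.21 for Gli1. Only quantile normalization could have reversed one. Gas1 at its brightest probe set ranged from 3.46 to 3.62, Cdon from 1.28 to 1.56, Ptch1 from 0.97 to 1.16 and Gli3 from -1.04 to -0.85 on the log2 scale. Member probe sets at least 2-fold higher in null cells numbered 5, against 8 without a floor, 8 at 1.5-fold, 4 with a pseudocount and 4 with a higher floor (0.4 times the trimmed mean), where the dimmest Gas1 probe set, 1456322_at, had a bound of 0.24 on the log2 scale in place of 1.24. Those at least 2-fold lower numbered 0, against 4 without a floor, 1 with a lower floor (0.1 times the trimmed mean), 1 with the arrays matched on their medians and 2 at 1.5-fold. Member genes at least 2-fold higher numbered 3, against 1 with the second brightest probe set, where Cdon and Ptch1 were below the floor, and 5 at 1.5-fold. Member genes at least 2-fold lower numbered 0, against 1 (Gli3) with the arrays matched on their medians and 1 at 1.5-fold. The median log2 ratio of the member probe sets was 0.097 with a pseudocount, over all 27. That setting also put Ptch1 just under 2-fold. Genes of the wider list at least 2-fold higher numbered 2, against 5 without a floor and 1 with a pseudocount, with the mean of probe sets or with the second brightest one. Those at least 2-fold lower numbered 3, against 5 without a floor, 2 with a pseudocount or with the mean of probe sets, and 0 with the second brightest one. When the floor is dropped or replaced, every probe set is counted, including those too dim to be measured here. No paired analysis was possible because each group has 1 array.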
